A study of Mus musculus with 7 samples.

Results

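Collagen genes encode the alpha chains of collagens, and 44 of the 55484 genes in the count table carry a symbol of the form Col, a type number, the letter a and a chain number. Every gene with such a symbol was taken, whatever its level. They were measured by RNA-seq in 4 samples of MEFs and 3 of mESCs, all labelled as C57/Bl6 background. MEFs are connective tissue cells cultured from mouse embryos, whereas mESCs are stem cells with the potential to form every tissue of the animal. The embryonic day, sex, passage and culture of the cells behind each library are not given in the sources used here. The study describes a flow cytometric sort, of Thy1+ MEFs and of Thy1-/Ssea1+/Epcam+ mESCs, for its chromatin libraries, and does not say whether the RNA came from sorted cells. The extraction text in the labels speaks of young and aged blood stem cells of individual mice, which the labelled cell types are not. Reads were primed at the poly(A) tail with a molecular identifier, so a count stands for about 1 captured transcript end, and levels are given without division by gene length. Where genes are ranked, the order per kb of exon is added only as an alternative scale, since counts of transcript ends need not grow with length. The labels do not say that the libraries of a cell type came from separate animals. The study calls its transcriptional data biological replicates, without saying what separates them, and gives fewer MEF replicates than the count table has MEF columns, all of which were used. The p-values measure the spread between these libraries, which may be technical in part.

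Alpha chains wind around each other into a helix, and the type of a collagen follows from the chains it holds. Fibrillar collagens such as types I, III and V form the tensile fibres of connective tissue and are the main secreted product of fibroblasts. Type IV chains build the sheet of basement membranes, type VI forms beaded filaments around cells, and other types coat fibrils, span the membrane or carry a heparan sulphate chain. In the early embryo, basement membrane collagen is laid down before fibrillar matrix.

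The libraries held 6528643 to 11441278 counts on genes, and the limit of 3 counts per library used here stood at 0.262 to 0.460 CPM, the counts per 1000000 counts of the library, for counting error only. The markers followed the labels, with 12 of 12 fibroblast genes higher and 8 of 8 pluripotency genes lower in MEFs. The libraries are named O1 to O4 for MEFs and Y1 to Y3 for mESCs after the last part of their column names, whose letters are not explained. The first part is MEF1 in every MEF column and mESC1 in every mESC column, each also the title of a single sample. Whether the libraries of a cell type share a source is not stated, and the levels of Y-linked genes, given below, differed within each cell type. Fold changes were fitted after TMM scaling (edgeR's quasi-likelihood test, Benjamini-Hochberg adjustment over 16580 genes), under which the median gene differed by -0.037 on the log2 scale between MEFs and mESCs, against -0.322 with scaling by library size alone. Of all genes called, 52.3% were higher in MEFs with TMM and 39.0% without it. In bulk RNA, fewer cells of a type and less RNA per cell cannot be told apart.

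To show the DNA next to genes on which the results turn, the bases before the start sites of Col3a1 and Col8a1, which were far higher in MEFs, and of Col18a1 and Col6a5, which were lower in MEFs, are printed from RefSeq on GRCm38.p6. The last line holds the 71 bases between the head-to-head genes Col4a4 and Col4a3, on the plus strand. Capitals mark the CCAAT motif, the TATAAA motif and the motif GGGCGG, or their reverse complements. Each other line reads 5′ to 3′ in the direction of its gene and ends at the start site, except that of Col18a1, which stops where the annotated gene begins.
Col3a1, chr1:45311288-45311537, plus strand: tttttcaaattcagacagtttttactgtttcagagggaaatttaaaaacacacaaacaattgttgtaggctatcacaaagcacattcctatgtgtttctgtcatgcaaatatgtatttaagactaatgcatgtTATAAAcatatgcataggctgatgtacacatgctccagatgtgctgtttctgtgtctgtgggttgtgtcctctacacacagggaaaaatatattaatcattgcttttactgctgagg
Col8a1, chr16:57754738-57754987, minus strand: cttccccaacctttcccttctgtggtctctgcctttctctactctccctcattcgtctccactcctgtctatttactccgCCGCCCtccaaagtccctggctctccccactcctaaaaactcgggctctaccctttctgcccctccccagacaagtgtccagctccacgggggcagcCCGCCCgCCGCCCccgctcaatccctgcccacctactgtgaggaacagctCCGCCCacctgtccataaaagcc
Col18a1, chr10:77166549-77166780, minus strand: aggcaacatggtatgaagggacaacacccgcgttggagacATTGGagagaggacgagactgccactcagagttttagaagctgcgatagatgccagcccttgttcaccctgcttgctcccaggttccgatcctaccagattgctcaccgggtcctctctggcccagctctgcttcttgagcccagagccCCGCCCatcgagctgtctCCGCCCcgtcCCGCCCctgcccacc
Col6a5, chr9:105960644-105960893, minus strand: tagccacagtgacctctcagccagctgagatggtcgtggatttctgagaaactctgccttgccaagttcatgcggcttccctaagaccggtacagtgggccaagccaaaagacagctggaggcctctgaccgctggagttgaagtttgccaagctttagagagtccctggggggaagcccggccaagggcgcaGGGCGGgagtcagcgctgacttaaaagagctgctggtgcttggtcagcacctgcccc
Col4a4 and Col4a3, chr1:82586850-82586920, plus strand: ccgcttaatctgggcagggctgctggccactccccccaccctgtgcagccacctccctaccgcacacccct
The Col3a1 window holds 1 TATAAA, at position -117 from the start site, and neither other motif. Those of Col8a1 and Col18a1 hold 4 and 3 copies of GGGCGG, in each case as the reverse complement, and Col6a5 has 1 at -57. RefSeq gives 2 start windows for Col18a1, and the other, downstream one (chr10:77113706-77113955 on the minus strand for the bases before the start) holds none of the 3 motifs. The 71 bases between Col4a4 and Col4a3 hold none of the 3 motifs. A RefSeq window of 250 bases before to 50 after the start was at hand for 35 of the 44 genes. In the first window of each, GGGCGG occurred in 22 of 35 against 35.9% of the first windows of 27025 genes, TATAAA in 5 (14.2% of all) and CCAAT in 12 (37.9% of all). The median GC content was 59.9% in the collagen windows and 52.7% in all windows. These matches describe letters only.

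Collagen genes took a far larger part of the transcriptome in MEFs than in mESCs. They held 2.40%, 2.68%, 4.01% and 3.24% of all gene counts in MEF O1 to O4, a mean of 3.08 ± 0.712% (SD, n = 4). In mESC Y1 to Y3 they held 0.0492%, 0.0394% and 0.0423%, a mean of 0.0436 ± 0.00506% (SD, n = 3). The lowest MEF library thus stood far above the highest mESC library, and the collagen counts behind these shares were 196306 to 368055 in MEFs and 3159 to 4034 in mESCs. More than 3 counts were found for 37 to 42 collagen genes in a MEF library and for 35 or 36 in a mESC library, so the number of genes detected was similar while the amounts were not.

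**Figure D1:**
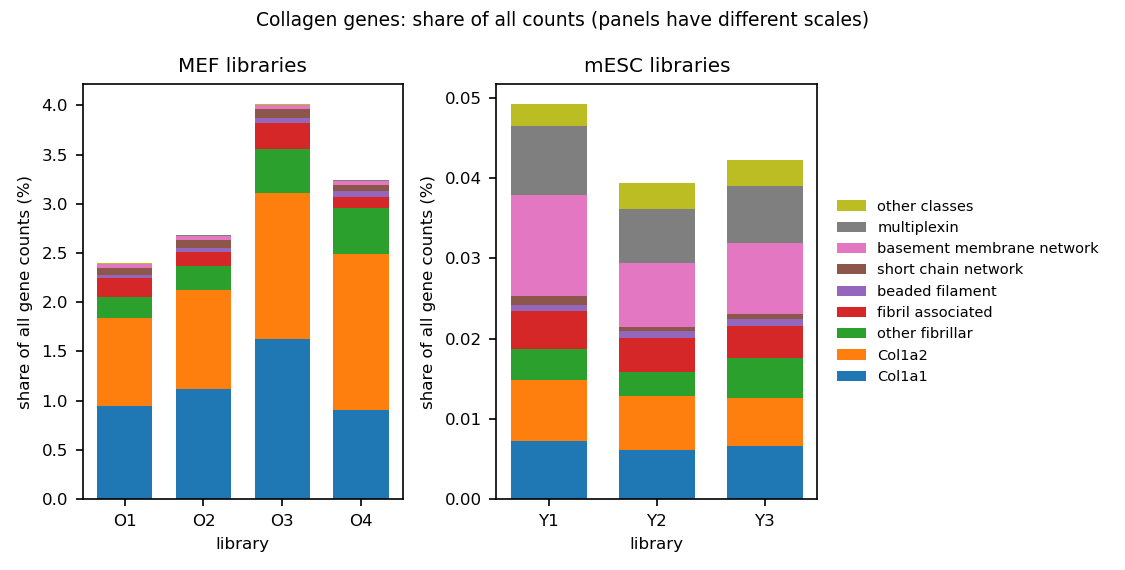
Share of all gene counts (%) taken by collagen genes in each MEF library (left) and mESC library (right), stacked by gene or class, on axes of different scale. Type I chains fill most of each MEF bar (2.39% of all counts on average), while basement membrane and multiplexin chains stand beside them in the mESC bars, which reach at most 0.0492%.

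The make-up of the collagen counts differed as well. Col1a1 and Col1a2, the 2 chains of type I collagen, made up 77.5 ± 1.15% of collagen counts in MEFs (SD, n = 4) and 30.8 ± 1.52% in mESCs (SD, n = 3), with no overlap between libraries. Fibrillar chains together held 88.5% of collagen counts in MEFs and 39.9% in mESCs. The type IV chains of basement membranes held 1.39% in MEFs and 22.3% in mESCs. The multiplexins, Col15a1 and Col18a1, held 0.0203% and 17.1%, almost all of it from Col18a1. In amount, though, the type IV chains were still higher in MEFs, at 0.0415 ± 0.00296% of all counts (SD, n = 4) against 0.00981 ± 0.00252% (SD, n = 3). The multiplexins are the class that held less of all counts in MEFs, at 0.000630 ± 0.000190% (SD, n = 4) against 0.00748 ± 0.000948% (SD, n = 3).

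Of the 44 collagen genes, 37 had enough counts for the test, 26 were higher in MEFs and 3 lower, where 25.0% and 22.8% of all 16580 genes tested were called in these directions (edgeR's quasi-likelihood test, adjusted p under 0.05). The other 8 tested genes did not pass. The median log2 fold change, MEF over mESC, of the 37 was 3.67, against -0.037 for all genes. In CPM, every MEF library stood above every mESC library for 24 of the 37 and below for 6, where 20.8% and 34.5% of all genes tested separate this way. A fitted log2 fold change above 5 was found for 15 collagen genes and for 432 of the 16580 genes (2.61%). The genes that passed the count filter include some that passed it through their MEF level, so these counts are no sample of all 44.

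**Figure D2:**
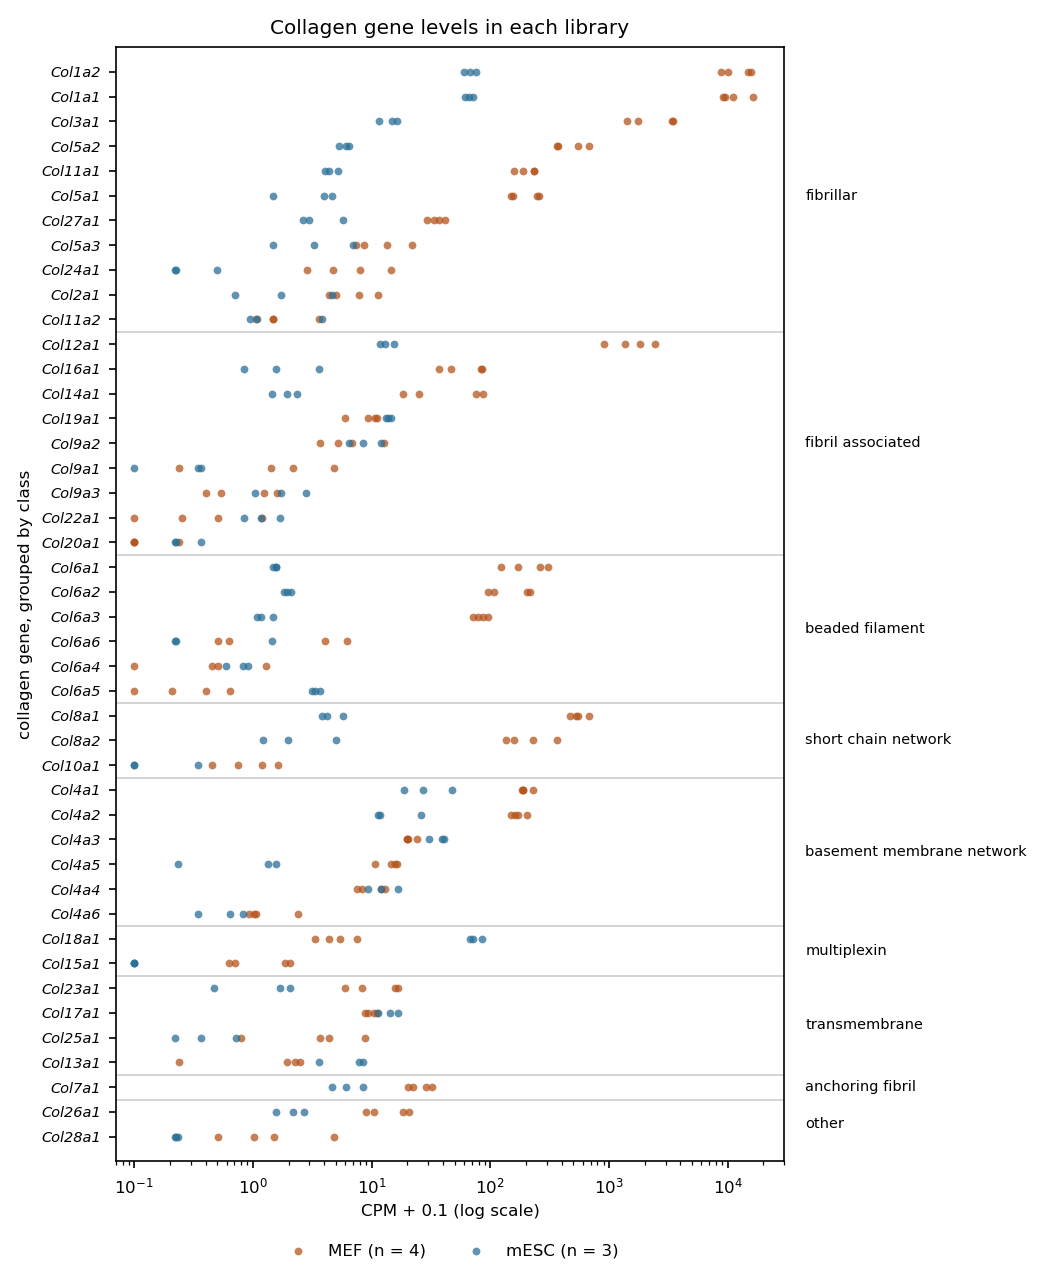
CPM plus 0.1 on a log axis for each of the 44 collagen genes, grouped by class, with 1 point per library (4 MEF, 3 mESC). Col1a1, Col1a2, Col3a1, Col5a1, Col5a2, Col6a1, Col6a2, Col6a3, Col8a1, Col8a2 and Col12a1 sit far to the right in MEFs, while Col18a1, Col6a5 and Col4a3 lie to the right in mESCs.

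Type I collagen, the main protein of skin, bone and tendon, was the largest collagen product. Col1a2 had 8856, 10070, 14820 and 15800 CPM in MEF O1 to O4 and 76.0, 67.3 and 59.8 CPM in mESC Y1 to Y3. Col1a1 had 9497, 11160, 16250 and 9074 CPM in the same MEF libraries and 71.9, 60.9 and 66.6 CPM in the mESC libraries. By counts they had ranks 2 and 3 among all genes in MEFs, behind Actb and ahead of Myh9, and the ranges of both chains overlapped. On the alternative scale per kb of exon the order of the chains was the reverse, with 1751 CPM per kb for Col1a1 and 997 for Col1a2. That order rests on lengths that merge all annotated exons of a gene, 6563 bases for Col1a1 and 12426 for Col1a2. The fitted fold changes were 221 for Col1a2 (log2 7.79, standard error 0.261) and 211 for Col1a1 (log2 7.72, standard error 0.269), each with an edgeR adjusted p of 1.64e-08. Col1a2 lies on chromosome 6 of GRCm38 (4504814 to 4541544, plus strand) and Col1a1 on chromosome 11 (94936224 to 94953042, plus strand).

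Type III collagen, which mixes with type I in extensible tissue, is made of 3 Col3a1 chains. Col3a1 had 1404, 1748, 3366 and 3457 CPM in MEF O1 to O4 and 14.9, 11.4 and 16.4 CPM in mESCs. O3 and O4 thus held far more than O1 and O2, and the cell types lay apart by more than that spread (log2 fold change 7.73, standard error 0.402, edgeR adjusted p = 1.66e-07).

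Types V and XI are minor fibrillar collagens that sit inside type I and type II fibrils and limit their width. Col5a2 had 374, 368, 553 and 678 CPM in MEFs and 5.25 to 6.30 CPM in mESCs. Col5a1 had 150 to 259 CPM in MEFs and 1.37 to 4.52 CPM in mESCs, and Col11a1 had 159 to 234 against 3.97 to 5.09 CPM. Their log2 fold changes were 6.67, 6.24 and 5.79, with edgeR adjusted p-values of 3.77e-08, 6.67e-07 and 2.49e-08. Col5a3, the remaining type V chain, rose less, from 1.37 to 6.83 CPM in mESCs to 7.34 to 21.6 CPM in MEFs (log2 fold change 2.01, edgeR adjusted p = 0.0105), and its libraries nearly touched. Its call did not hold against a fold change of 2.

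The other fibrillar chains were less abundant. Col27a1, a chain known from cartilage, had 29.4 to 41.2 CPM in MEFs and 2.55 to 5.61 in mESCs (log2 fold change 3.54, edgeR adjusted p = 7.86e-06). Col24a1, known from forming bone, had 2.74 to 14.4 CPM in MEFs and 1 to 3 counts in each mESC library (log2 fold change 5.27, edgeR adjusted p = 0.000250). The chain of cartilage type II collagen, Col2a1, had 7.78, 11.2, 4.90 and 4.29 CPM in MEFs and 0.610, 1.61 and 4.56 CPM in mESCs. MEF O4 lay below mESC Y3, and the Col2a1 call (log2 fold change 1.94, edgeR adjusted p = 0.0266) was lost without O2, Y1 or Y2, at adjusted p-values of 0.0661, 0.0726 and 0.0846. Col11a2 did not differ detectably (log2 fold change 0.25, 95% interval -1.11 to 1.61). Beside these genes, the cartilage markers Acan, Matn1 and Comp stood at 0 to 6 counts in each MEF library, while Sox9 had a mean of 181 CPM and Sox5 of 5.26 CPM there. Acan was lower in MEFs (log2 fold change -2.47, edgeR adjusted p = 0.0395). Sox6 did not pass, at a mean of 1.56 CPM in MEFs and 2.09 CPM in mESCs. For bone, Bglap was at 0 in every library, and Sp7 had 5, 31, 5 and 6 counts in MEF O1 to O4 and was not tested. Ibsp had a mean of 22.3 CPM and Runx2 of 39.6 CPM in MEFs. The tendon genes Tnmd, Scx and Mkx had means of 235, 5.64 and 3.82 CPM in MEFs, of which Mkx did not pass against 3.33 CPM in mESCs. The part of cartilage, bone or tendon cells in the collagen values was not tested.

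Among collagens that attach to fibrils, Col12a1, a chain of tension-bearing tissue, led with 1830, 1352, 2443 and 909 CPM in MEFs and 15.5, 11.7 and 13.0 CPM in mESCs. Its MEF libraries varied by more than those of type I but all lay far above the mESC libraries (log2 fold change 7.22, standard error 0.393, edgeR adjusted p = 2.19e-07). Col16a1 had 37.1, 46.6, 83.2 and 85.5 CPM in MEFs and 0.745 to 3.54 in mESCs, and Col14a1 had 24.9, 18.5, 75.1 and 87.2 CPM against 1.34 to 2.23. Their log2 fold changes were 5.29 and 5.08, with edgeR adjusted p-values of 1.13e-05 and 6.87e-05. In both genes, O3 and O4 were high among the MEF libraries. The 3 chains of type IX, a collagen on the surface of cartilage fibrils, did not move together: Col9a1 was higher in MEFs (log2 fold change 3.72, edgeR adjusted p = 0.0196) on 1 to 31 counts per MEF library, and its call was lost without Y1 or Y2. Col9a2 had 3.56 to 12.6 CPM in MEFs and 6.30 to 11.9 in mESCs, and Col9a3 had 0.306 to 1.50 CPM against 0.938 to 2.69; neither passed. Tcfl5 on the opposite strand overlaps 6.07% of the exon length of Col9a3, and 4.87% of the 50-base sequences of Col9a3 occur in another gene, mostly in Tcfl5. Col19a1 had 5.89 to 10.9 CPM in MEFs and 13.2 to 14.6 in mESCs, so that its libraries separated in CPM, but the fitted difference was small (log2 fold change -0.31, 95% interval -0.87 to 0.24).

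Type VI collagen is assembled from an alpha-1, an alpha-2 and an alpha-3-like chain. The classical chains were all higher in MEFs. Col6a1 had 122, 172, 265 and 306 CPM in MEFs and 1.37 to 1.47 CPM in mESCs, Col6a2 had 95.2 to 217 against 1.74 to 1.99 CPM, and Col6a3 had 71.0 to 95.6 against 0.976 to 1.37 CPM. The log2 fold changes were 7.49, 6.65 and 6.44 (edgeR adjusted p = 1.70e-07, 3.56e-07 and 2.46e-08). Of the alpha-3-like chains that lie side by side on chromosome 9, Col6a5 went the other way, with 0, 4, 1 and 2 counts in MEF O1 to O4 and 25, 29 and 24 counts in mESC Y1 to Y3 (log2 fold change -3.55, standard error 0.793, edgeR adjusted p = 0.00367). Its neighbour Col6a6 had 0.410 to 6.10 CPM in MEFs and 0.122 to 1.34 in mESCs and did not pass (log2 fold change 2.65, edgeR adjusted p = 0.0783). The adjusted p of Col6a6 was 0.0396 with DESeq2. In edgeR it was 0.00408 without the count filter and 0.0426, 0.0409 and 0.0302 without O1, O2 or Y3. In the other alternatives Col6a6 was not called. Of their 50-base sequences, 3.42% of those in Col6a5 and 3.70% of those in Col6a6 occur in another gene, most often in each other. Col6a4 had 0 to 1.20 CPM in all libraries and was not tested.

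The short chain collagens form hexagonal networks, such as that under the corneal and vascular endothelium for type VIII. Col8a1 had 543, 677, 471 and 527 CPM in MEFs and 5.61, 4.10 and 3.75 CPM in mESCs (log2 fold change 7.22, standard error 0.243, edgeR adjusted p = 1.64e-08). Col8a2 had 228, 157, 365 and 134 CPM against 4.88, 1.12 and 1.88 (log2 fold change 6.67, standard error 0.565, edgeR adjusted p = 4.75e-06). Both were far apart between the cell types, although the MEF libraries with most Col8a1 (O2) and most Col8a2 (O3) differed. Col10a1, made by hypertrophic cartilage cells, had 28 counts over all MEF libraries and 2 over all mESC libraries and was not tested.

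The basement membrane chains split by gene pair. Col4a1 and Col4a2, which form the common type IV network, overlap by 22 bases at their starts on chromosome 8 and are read away from each other. Col4a1 had 185, 227, 190 and 188 CPM in MEFs and 47.4, 27.1 and 18.8 CPM in mESCs (log2 fold change 2.95, standard error 0.294, edgeR adjusted p = 1.57e-05). Col4a2 had 148, 162, 205 and 171 CPM against 26.0, 11.2 and 11.8 CPM (log2 fold change 3.67, standard error 0.313, edgeR adjusted p = 4.98e-06). Both were higher in every MEF library, with smaller fold changes than the main fibrillar chains. Y1 held most of both in mESCs, and some primitive endoderm markers were also highest there: from Y1 to Y3, Gata6 had 240, 136 and 75 counts, Dab2 had 422, 162 and 85, Sox17 had 51, 41 and 9, and Lama1 had 254, 160 and 127. The summed level of all 6 such markers was 696, 629 and 497 CPM in Y1 to Y3 and 2467 to 3404 CPM in MEFs, most of it Sparc, and Gata4 had 18, 7 and 19 counts. Their part in the Col4a1 and Col4a2 levels was not tested, and without Y1 both genes stayed called.

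Col4a3 and Col4a4, whose chains join with Col4a5 in the kidney filter, are transcribed away from the 71 bases printed above. Col4a3 had 19.8, 19.7, 24.1 and 20.4 CPM in MEFs and 39.4, 30.4 and 40.3 CPM in mESCs. Every mESC library was higher in CPM, but the fitted difference was small (log2 fold change -0.52, standard error 0.188, edgeR adjusted p = 0.0407) and its call was lost without O1, O2, O4, Y1 or Y3, at adjusted p-values of 0.0814 to 0.132, and without the count filter, at 0.183. Of the 50-base sequences of Col4a3, 4.66% are shared, mostly with C430014B12Rik on the opposite strand. Col4a4 had 7.38 to 12.9 CPM in MEFs and 9.18 to 16.8 in mESCs and did not pass (log2 fold change -0.04, 95% interval -0.65 to 0.56). Col4a5, on the X chromosome, had 14.4, 16.4, 10.7 and 15.8 CPM in MEFs and 1.47, 1.24 and 0.134 in mESCs (log2 fold change 4.15, edgeR adjusted p = 9.84e-05). Its head-to-head neighbour Col4a6, 1308 bases away, had only 44 counts over the MEF libraries and 12 over the mESC libraries. Of the chains of the kidney network, Col4a5 was thus the one that rose in MEFs.

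Col18a1, whose protein carries heparan sulphate in basement membranes and releases the fragment endostatin, was the collagen with most counts in mESCs. It had 3.23, 4.24, 5.34 and 7.51 CPM in MEF O1 to O4 and 85.4, 67.1 and 72.0 CPM in mESC Y1 to Y3. Every mESC library lay far above every MEF library (log2 fold change -3.62, standard error 0.261, edgeR adjusted p = 1.54e-06). In mESCs it came before Col1a2 and Col1a1 by mean CPM (74.8 ± 9.48, 67.7 ± 8.14 and 66.5 ± 5.48, SD, n = 3), and the ranges of the 3 genes overlapped. Col4a3 and Col4a1 followed at 36.7 ± 5.49 and 31.1 ± 14.7 CPM (SD, n = 3). On the alternative scale it had 10.7 CPM per kb of exon and Col1a1 10.1. Col18a1 lies on chromosome 10 of GRCm38 (77052178 to 77166548, minus strand), 326 kb from Col6a1, which went the other way. Col15a1, the other multiplexin, had 0 counts in all mESC libraries and 4 to 18 counts in MEF libraries, and was not tested. Its mean in MEFs was 3.21 times the limit of 3 counts per mESC library (0.366 to 0.402 CPM). The lowest MEF library, at 0.524 CPM, lay closer to that limit.

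The membrane-spanning collagens were low in both cell types. Col23a1 had 5.88 to 16.7 CPM in MEFs and 0.372 to 1.95 in mESCs, and Col25a1, a chain of neurons and muscle innervation, had 0.699 to 8.72 against 0.122 to 0.621. Both were higher in MEFs (log2 fold change 3.41 and 3.89, edgeR adjusted p = 0.000637 and 0.00505). The Col25a1 call rests on 8, 26, 80 and 28 counts in MEF O1 to O4 and 1, 5 and 2 counts in mESC Y1 to Y3. Col17a1, of the skin hemidesmosome, had 8.74 to 10.9 CPM in MEFs and 11.2 to 16.6 in mESCs and did not pass (log2 fold change -0.23, 95% interval -0.73 to 0.27). Col13a1 had 2.19, 0.137, 2.40 and 1.84 CPM in MEFs and 3.54, 8.32 and 7.77 in mESCs, separated in CPM but with an edgeR adjusted p of 0.0504 (log2 fold change -1.69). The Col13a1 difference passed with DESeq2 (adjusted p = 0.0278). In edgeR it passed without scaling (adjusted p = 0.0240), with DESeq2 size factors (0.0494), without the count filter (0.0116) and with the stricter filter (0.0460). It also passed without O2 (0.0412) or Y1 (0.0445), and not in the other alternatives. Col7a1, the anchoring fibril of skin, had 32.3, 28.6, 20.2 and 22.1 CPM in MEFs and 8.42, 5.96 and 4.56 in mESCs (log2 fold change 2.31, edgeR adjusted p = 0.000107). Col26a1 had 8.89 to 20.6 against 1.47 to 2.61 CPM (log2 fold change 3.08, edgeR adjusted p = 0.000141). Col28a1, Col22a1 and Col20a1 were not tested, with 68, 14 and 1 counts over the MEF libraries and 3, 27 and 4 over the mESC libraries.

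**Figure D3:**
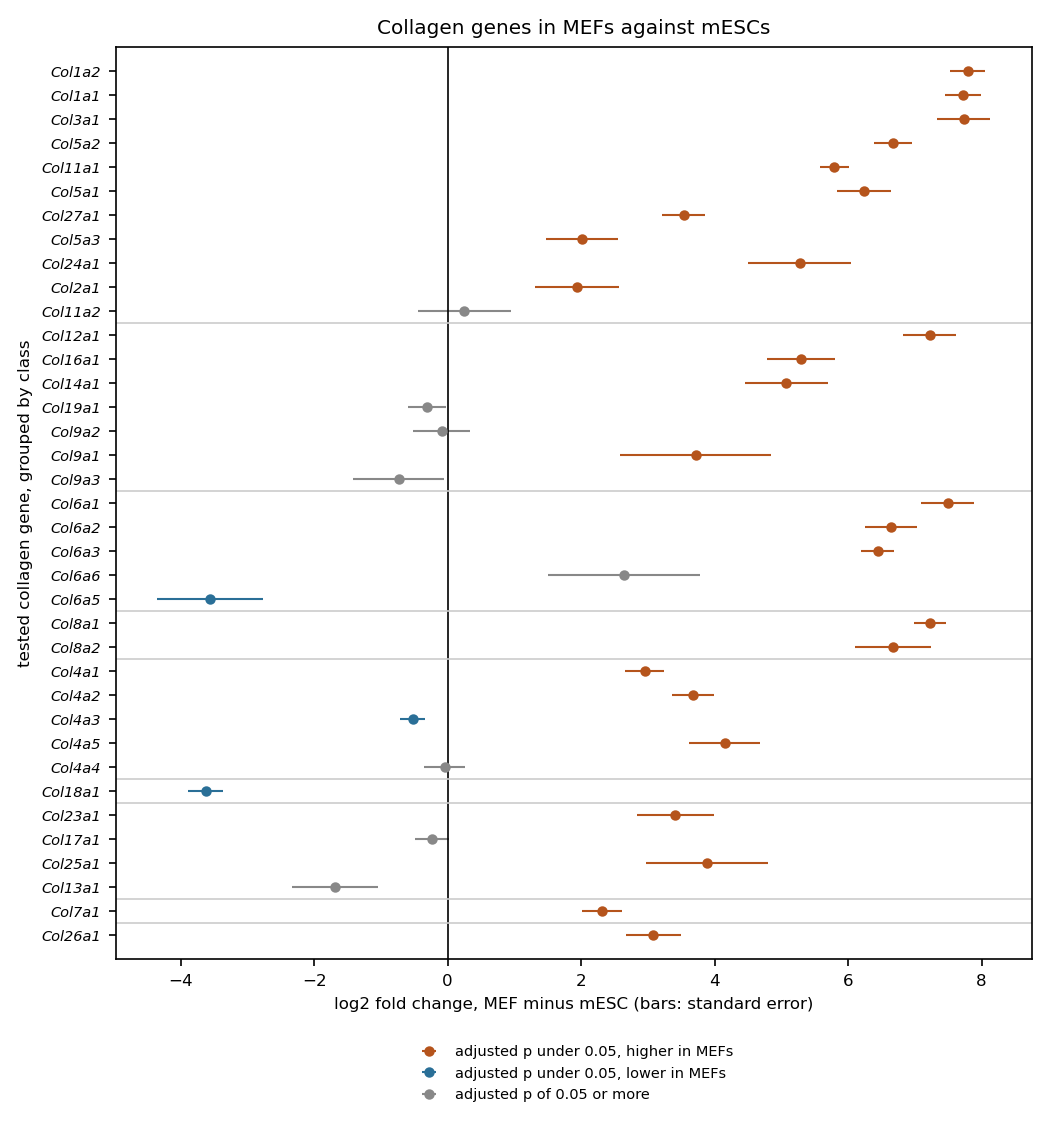
Log2 fold change, MEF minus mESC, with its standard error for the 37 tested collagen genes, grouped by class as in the plot of levels. Values run from -3.62 for Col18a1 to 7.79 for Col1a2, and the 3 genes lower in MEFs are Col18a1, Col6a5 and Col4a3.

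The MEF libraries were not alike in collagen make-up. Of the 24 collagen genes with a mean of at least 10 CPM in MEFs, 16 were higher in both O3 and O4 than in both O1 and O2 (66.7%, against 27.3% of 8736 tested genes at that level), among them Col1a2, Col3a1, Col5a2, the classical type VI chains and Col14a1. For Col8a1 and Col7a1 the order was the opposite. Of the 12 fibroblast markers, 8 were also higher in both O3 and O4, 2 were lower there and 2 had neither order. Dcn had 110, 133, 425 and 503 CPM from O1 to O4 and Lum 44.0, 43.1, 106 and 135 CPM, while Vim had 2098, 2047, 1618 and 1893 CPM and S100a4 had 215, 187, 142 and 148 CPM. The Y-linked genes Ddx3y, Eif2s3y and Kdm5d, looked up after the values were seen, summed to 1.92, 0.547, 82.4 and 85.2 CPM from O1 to O4 and to 1.95, 1.99 and 40.7 CPM from Y1 to Y3. The high sums among MEFs thus fell in O3 and O4, the same libraries as in the collagen order. The 2 splits cannot be told apart here, and the part of the Y-linked difference in the collagen order was not tested. The order of the MEF libraries was noticed in the values and has no test here.

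Chains of one collagen type were compared as ratios of counts within a library, which differ between genes also through priming and gene length. Col1a1 over Col1a2 was 1.07, 1.11, 1.10 and 0.574 in MEF O1 to O4 and 0.945, 0.906 and 1.11 in mESC Y1 to Y3. O4 stood apart from the other 6 libraries, and its Col3a1 over Col1a1 ratio (added after the values were seen) was also the highest, at 0.381 against 0.148 to 0.207 in the other MEF libraries. Col4a1 over Col4a2 was 0.928 to 1.41 in MEFs and 1.59 to 2.42 in mESCs, with no overlap. Col6a1 over Col6a2 was 1.28 to 1.60 in MEFs and 0.688 to 0.846 in mESCs, but the mESC values rest on 34 and 44 counts in all, and their pooled ratio of 0.773 has a 95% exact binomial interval of 0.479 to 1.24, for counting error only. That interval stays below the pooled MEF ratio of 1.38. Col6a3 over Col6a1 was 0.284 to 0.581 in MEFs and 0.667 or more in each mESC library, on 27 and 34 mESC counts in all. Col5a1 over Col5a2 and Col8a1 over Col8a2 overlapped between the cell types, at 0.366 to 0.468 against 0.229 to 0.861 and at 1.29 to 4.31 against 1.15 to 3.67.

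**Figure D4:**
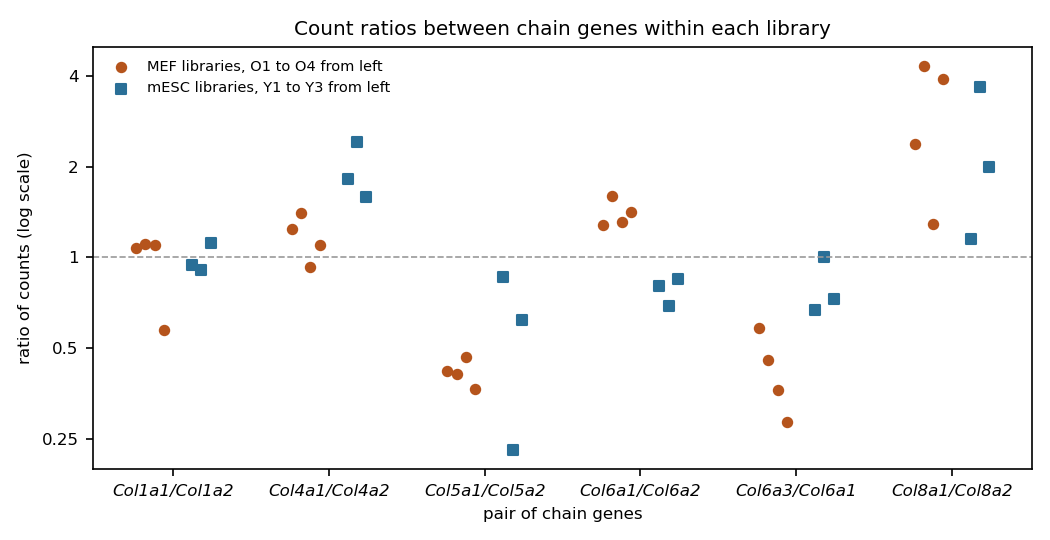
Ratio of counts between 2 chain genes of one collagen type in each library, on a log axis, with MEF libraries as circles and mESC libraries as squares. The type I ratio of MEF O4 (0.574) lies apart from the other MEF libraries, and the Col4a1/Col4a2 ratios of the cell types (up to 1.41 in MEFs, from 1.59 in mESCs) do not overlap.

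The main fibroblast collagens were low in mESCs, in proportions that differed between genes. Among the 13 collagen genes with a mean of at least 100 CPM in MEFs, the mESC mean was 0.546% to 15.7% of the MEF mean, with a median of 1.18%, and apart from Col4a1 and Col4a2 none of them was above 2.18%. It was lowest, at 0.546% for Col1a2, 0.578% for Col1a1, 0.570% for Col3a1, 0.664% for Col6a1, 0.810% for Col8a1 and 0.820% for Col12a1. Col5a2, Col8a2, Col6a2, Col5a1 and Col11a1 stood at 1.18%, 1.19%, 1.19%, 1.60% and 2.18%. The 12 fibroblast markers began at 0.707% for Dcn, above the values of Col1a2, Col3a1, Col1a1 and Col6a1. Next came Postn (1.03%), Prrx1 (1.04%), S100a4 (1.59%), Vim (1.93%), Thy1 (2.45%) and Pdgfrb (2.48%). The others were higher, with Pdgfra at 6.47%, Twist1 at 9.75%, Lum at 19.9%, Fbln1 at 23.1% and Fn1 at 49.6%. The summed level of the 12 markers was 312 to 369 CPM in mESC libraries and 4636 to 5467 CPM in MEF libraries. The source of the low collagen counts in mESC libraries was not tested.

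**Figure D5:**
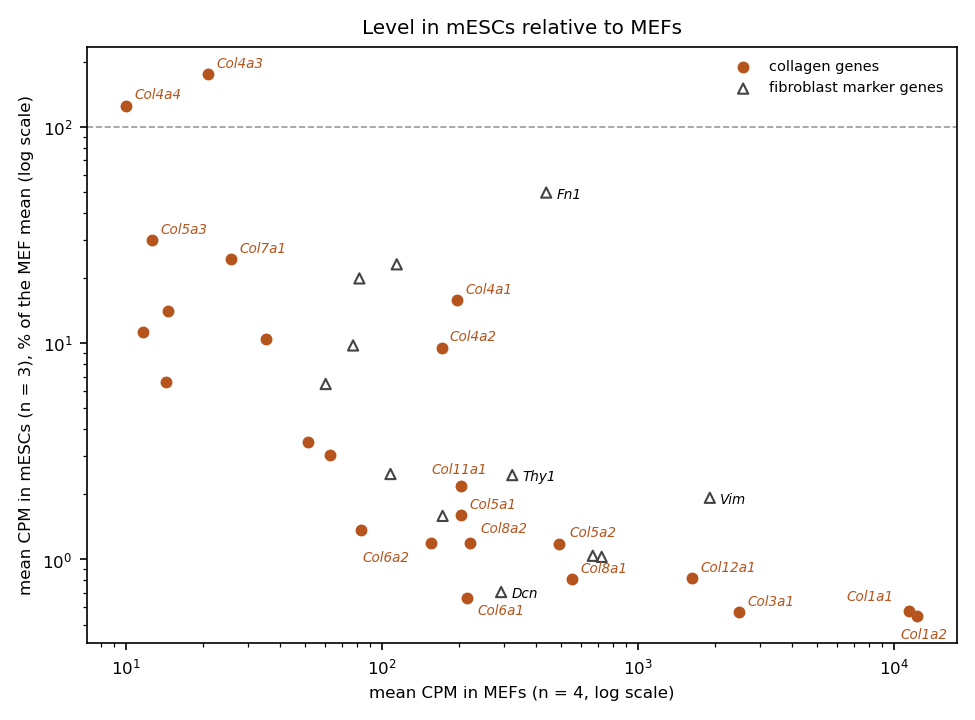
Mean CPM in mESCs as a percentage of the mean in MEFs, against the MEF mean, both on log axes, for the 24 collagen genes with at least 10 CPM in MEFs (circles) and 12 fibroblast marker genes (triangles), with the dashed line at equal levels. The most abundant collagens lie low on the right at 0.546% to 0.820%, Col4a2 and Col4a1 lie at 9.52% and 15.7%, and Col4a4 and Col4a3 lie above the line.

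Genes whose products fold, process, bind and break down collagen were mostly higher in MEFs too. Of 21 genes for folding and secretion, 20 were tested, 15 were higher in MEFs and none lower, with a median log2 fold change of 2.38. The highest were Fkbp10 (5.30) and Serpinh1 (4.91), chaperones of procollagen, and P4ha2 (3.59), a prolyl hydroxylase subunit, and the lowest that passed were Mia3 (1.29), an export receptor, P3h3 (1.67) and Sec23a (2.26). Of 13 genes for processing and crosslinking, 8 of 11 tested were higher, from Lox (7.18), Loxl4 (6.70) and Adamts2 (6.03) down to Tll1 (4.57), Pcolce (3.63) and Loxl3 (2.61). The collagen receptors were higher in 5 of 7 tested (of 10), led by Ddr2 (6.46), Mrc2 (4.89) and Itgb1 (3.29) and ending with Itga1 (1.46) and Ddr1 (1.36). Against a fold change of 2, 3 receptors were called, and the calls of Itga1, Ddr1 and Mia3 were lost (edgeR adjusted p = 0.0805, 0.160 and 0.0669). Of 8 enzymes that break down collagen, the 4 tested were all higher, at 6.45 for Ctsk, 3.88 for Mmp14, 3.06 for Mmp9 and 2.18 for Mmp2. No gene of these lists was called lower in MEFs, where 25.0% of all genes were called higher and 22.8% lower. Among the genes that did not pass, Pcolce2 had 16.3 to 24.7 CPM in mESCs and 3.52 to 15.3 CPM in MEFs. In mESC Y1 to Y3, Loxl2 had 85, 2574 and 131 counts and Itga11 had 66, 47 and 694. The differences given in parentheses or after a gene are log2 fold changes of MEFs over mESCs.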

How the data were processed

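Gene counts of 4 MEF and 3 mESC libraries were analysed. Per the methods, reads were demultiplexed and trimmed before alignment by STAR on mm10 (version 2.4.2a per the labels, another version in the methods). The authors collapsed molecular identifiers with Je and counted reads on exons with featureCounts, and deposited raw counts. The annotation release and strand setting are not given in the sources used here, so antisense overlaps are uncertain. All columns of a cell type begin with the same sample title (MEF1 or mESC1), so they were tied to the cell type only. Of the per-sample columns, 0 were unused. The 26 symbols in date form (0.249% of counts) and 37 mitochondrial rows, all at 0 counts, stayed in the totals. CPM are per library total. edgeR 4.0.16 (limma 3.58.1, R 4.3.3; TMM, filterByExpr, glmQLFTest, MEF minus mESC, no covariates) was fitted over the whole table after a test on simulated data, with an adjusted p of 0.05 as threshold. Positions and exon lengths (all annotated exons of a gene merged) are from GENCODE M21 (GRCm38), matched by symbol for all 44 genes. Members, classes, marker and pathway lists were chosen with earlier results of these data known. Values of every library are given for genes of at least 10 CPM in a cell type or past the threshold, or their range. Pathway genes named are those past the threshold with the 3 largest and 3 smallest fold changes. Pcolce2, Loxl2 and Itga11 were added after the values were seen. Alternatives were DESeq2 1.42.0, other scalings and filters, a fold change of 2 as null, and each library left out.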

Additional observations from a re-analysis of the deposited data

Results flagged for a closer look

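In 51 groups of 4 MEF values (44 genes, the collagen share and 6 chain ratios), the gap of the highest or lowest library to its neighbour was compared with the range of the group, against Dixon's 95% critical value for 4 samples. For independent normal values chance gives about 1 in 20, or 2.55 groups, and 6 passed. Genes of few counts, and ratios of genes that are also listed, do not meet that condition. The 6 are thus no test against chance. The Col1a1/Col1a2 count ratio was low in MEF O4, at 0.574. Col4a1 was high in O2, at 227 CPM. In O3, Col4a3 was high at 24.1 CPM, Col11a2 at 3.49 CPM and Col4a6 at 2.29 CPM. Col20a1 was high in O2 at 0.137 CPM, which is 1 count.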

How the results depend on the processing

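The number of collagen genes higher in MEFs (26) was 23 to 30 under the 14 alternatives, and the number lower (3) was 2 to 4. The number tested (37) was 32 to 44 under them, so these counts do not share a base. The calls over all genes moved too. Of 16580 genes, 4153 were higher and 3785 lower in MEFs in the main fit. Without scaling these numbers were 3334 and 5205, and against a fold change of 2 they were 2277 and 1714. The collagen shares of both cell types were recomputed with pooled counts, without mitochondrial rows and without each library of the cell type. All moved by less than 1 SD. Leaving out 1 library cannot move the mean of a cell type by 1 SD, and the mitochondrial rows hold 0 counts. Those alternatives could thus not have failed and are no check of the shares. Of 504 recomputed log2 fold changes of collagen genes, 467 kept direction and side of the threshold, 15 lost the call, 12 gained it and 10 changed sign. The sign changed for genes without a call: Col11a2 was -0.045 without scaling, and leaving out each library gave -0.21 to 0.21 for Col4a4, -0.47 to 0.21 for Col9a2 and -0.31 to 1.23 for Col11a2. Collagen receptors higher in MEFs numbered 3 against a fold change of 2. The calls lost were those of Itga1 and Ddr1, which had the smallest log2 fold changes of the called receptors, 1.46 and 1.36. The list of the 10 collagen genes with most CPM shared 8 (MEFs) and 9 (mESCs) with that per kb of exon. Dropping mitochondrial rows changed nothing, as they are at 0. No paired analysis was possible because the column names are not tied to the sample numbers. Depth limits genes of few counts, such as Col20a1.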
